A study of Danio rerio with 6 samples.

Results

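Splicing and RNA helicase genes were followed in endothelial cells (ECs) sorted from the tails of zebrafish embryos at 36 h post-fertilisation (hpf). The set held every gene of the table whose symbol began with srsf, hnrnp, sf3a, sf3b, snrnp, snrp, prpf or u2af, or with lsm, ddx, dhx or rbm and a digit. This gave 151 of the 10232 genes listed, and all 151 were tested, with no filter on low values. There were 16 SR protein genes, 18 hnRNP genes, 3 U2AF genes, 8 SF3A and SF3B genes, 19 snRNP protein genes, 10 LSm genes, 12 PRPF genes, 27 DDX genes, 10 DHX genes and 28 RBM genes. The rule used names and no measured value, and a shared name did not always mean a shared role. RefSeq lists ddx26b as ints6l, a subunit of the Integrator complex, and 15 of the RBM genes, 8 of the DDX genes and 7 of the DHX genes were kept apart as genes of other or mixed roles.

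DN-bmal1a ECs came from embryos labelled flk1:GFP;flk1:GAL4;UAS:DN-bmal1a, and control ECs from embryos labelled flk1:GFP;UAS:DN-bmal1a, with 3 libraries in each group. Flk1 is another name for kdrl, an endothelial receptor gene, and its promoter drove both the GFP used for sorting and the GAL4 activator that turns on the dominant-negative transgene. Controls carried the same silent transgene without GAL4, so that both groups shared the GFP reporter and the UAS insertion, and the dominant-negative protein lacks the transactivation domain of the clock factor Bmal1a. About 5000 GFP+ cells were sorted per sample from the dissected caudal haematopoietic tissue (CHT). The comparison addressed what the dominant-negative protein, meant in the paper to impair both Bmal1a and Bmal1b, does to the transcripts of these ECs. Only DN-bmal1a embryos carried GAL4, and no library had GAL4 without the transgene. Effects of GAL4 and of the dominant-negative protein therefore cannot be told apart. The labels do not say which embryos each library came from, and p-values measure the spread between these libraries.

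Splicing removes introns from pre-mRNA in the spliceosome, a machine built from small nuclear ribonucleoproteins (snRNPs), each a small RNA in a ring of Sm or LSm proteins with further specific proteins. SR proteins bind exons and mostly favour their inclusion, hnRNPs coat nascent RNA and often oppose it, and U2AF and the SF3A and SF3B proteins bring the U2 snRNP to the end of the intron. DEAD-box (DDX) and DEAH-box (DHX) proteins use ATP to remodel RNA and its proteins, some at set steps of splicing and others in ribosome assembly, mRNA export, translation or mRNA decay.

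Levels are given in counts per 1000000 (CPM) of an effective library size, which are not divided by gene length, so that they compare libraries and not genes. Libraries held between 26161915 and 55004237 reads of the listed genes, and 1 read was worth between 0.0178 and 0.0367 CPM. The shallowest was DN-bmal1a library 2, in which 1760 listed genes had no read, against 34 to 865 genes in the other libraries. These counts did not follow depth throughout. Control library 2, the next shallowest, had 34 genes without a read, and DN-bmal1a library 3, the deepest, had 865. Bmal1a, listed as arntl1a, had 42.9, 22.1 and 55.5 CPM in DN-bmal1a ECs, against 20.6, 16.8 and 3.28 CPM in control ECs, without overlap, and reads of the transgene and of the endogenous gene could not be told apart. Marker genes differed between the groups. The 10 listed of 12 endothelial markers summed to 4353, 3802 and 3986 CPM in DN-bmal1a ECs, against 5377, 5939.6 and 6526 CPM in control ECs, and the 6 listed of 7 erythroid markers to 2214, 3379 and 3467 CPM in DN-bmal1a ECs, against 1755, 504 and 1202 CPM in control ECs, neither with overlap. Of the endothelial genes, kdrl, cdh5, egfl7, flt1 and flt4 lay wholly below the controls, and pecam1, tek, erg, fli1a and sox7 overlapped. The mean of fli1a was 710 CPM in DN-bmal1a ECs, against 730 CPM in control ECs. The 6 epidermal markers ranged from 2542 to 3244 CPM in DN-bmal1a ECs and from 3616 to 3705 CPM in control ECs, and the 4 listed of 6 neural markers from 32.2 to 34.4 CPM in DN-bmal1a ECs and from 47.4 to 96.7 CPM in control ECs. Krt8 held most of the epidermal sum, and each of the 6 epidermal genes overlapped singly. Means of krt4, krt5 and krt8 were lower in DN-bmal1a ECs, and those of cldni, epcam and tp63 higher. Tubb5 held most of the neural sum and was the only neural gene without overlap. The mean of elavl3 was 5.52 CPM in DN-bmal1a ECs, against 5.24 CPM in control ECs. Summed myeloid, muscle and proliferation markers overlapped between the groups. Myeloid sums (5 listed of 6) were 6243, 9369 and 6928 CPM in DN-bmal1a ECs, against 11044, 8978 and 6428 CPM in control ECs. They were larger than the endothelial sums in every library except control library 3, and lyz held most of them. The mean of mpx was 650 CPM in DN-bmal1a ECs, against 1300 CPM in control ECs, with overlap. Of the myeloid genes only coro1a had a higher mean in DN-bmal1a ECs. No list summed to 0 in any library, and among single markers the erythroid gene gata1a and the neural genes elavl3, sox3 and gfap had no read in 1 or more DN-bmal1a libraries. Hbbe1.1 and hbae3 held most of the erythroid sum, and gata1a went against it, wholly below the controls at 0, 0 and 1.83 CPM in DN-bmal1a ECs, against 4.13, 5.84 and 8.89 CPM in control ECs. In these bulk samples fewer cells of a type and less RNA per cell cannot be told apart, and the part of the marker differences in the results below was not tested.

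No splicing or helicase gene passed the thresholds of an adjusted p below 0.05 (limma, Benjamini-Hochberg over all 10232 genes) and a 2-fold difference. The background was 1 gene, or 0.00977% of those tested, and the lowest adjusted p of the set was 0.223, for ddx26b. The quasi-likelihood test of edgeR also called none of the 151 and 0 of all genes (13 of the 151 higher, against a background of 2.63%, and 6 lower, against 5.23%, at an unadjusted p below 0.05), and its exact test called none of the 151 and 0.371% of all genes. DESeq2 on the recovered reads called 2, ddx26b and dhx34, where it called 1.83% of all genes. Dhx34 had no read in DN-bmal1a libraries, and the rule by which genes were listed fixed its gap. At an unadjusted limma p below 0.05, 12 genes were higher in DN-bmal1a ECs (7.95%, against a background of 3.10%) and 6 were lower (3.97%, against a background of 8.12%). The 6 included dhx34. Of the set's genes with a mean of at least 10 CPM, 8.82% were higher, against 4.05% of all such genes, and 3.68% lower, against 7.79%. The count of 12 was 7 (4.64%) without control library 1, against 2.84% of all genes in the same fit, and also 7 without control library 2, against 2.46%. The count of 6 was 3 (1.99%) without control library 2, against 4.94% of all genes.

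More of the genes stood wholly above the controls than wholly below them. In 26 genes (17.2%) all 3 DN-bmal1a libraries lay above all 3 control libraries, against 7.00% of all genes, and in 12 genes (7.95%) they all lay below, against 10.7% of all genes. The 12 included dhx34, whose gap was fixed by the rule by which genes were listed. Few of the 151 genes were weakly expressed, and 136 of them had a mean of at least 10 CPM, as had 6611 of all genes. Among those, 26 of the 136 lay above (19.1%, against 9.21% of the 6611) and 11 below (8.09%, against 10.1%). The exact two-sided permutation test of a single gene gives p = 0.1 for each such gene, the smallest value that 3 libraries against 3 allow. Leaving out a library makes a gap between groups easier to reach, and the count above then lay between 28 and 40, highest without DN-bmal1a library 2, where the share of all genes was 12.3%. The count below was 21 (13.9%) without DN-bmal1a library 1, where it was 20.1% of all genes.

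**Figure D1:**
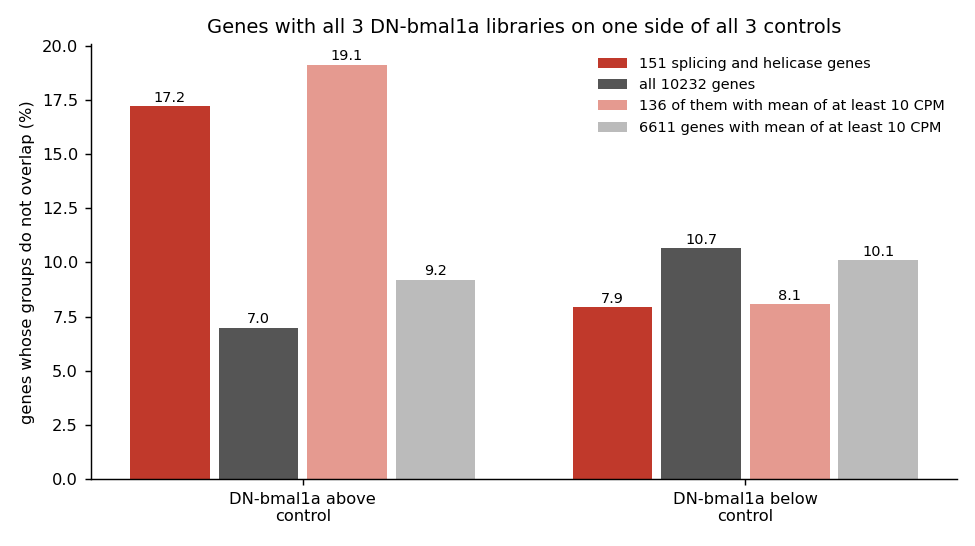
Share of genes, in per cent, whose 3 DN-bmal1a libraries all lay above or all lay below the 3 control libraries. Bars show the 151 splicing and helicase genes beside all 10232 genes, and the 136 of them beside the 6611 genes with a mean of at least 10 CPM, and the share above was 17.2% of the 151 genes and 7.00% of all genes.

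Summed over the 151 genes, the level was 20564, 21195 and 21318 CPM in DN-bmal1a ECs, against 19669, 19211 and 18923 CPM in control ECs, with every DN-bmal1a library above every control library and a ratio of 1.09. As a share of the reads this was 2.06, 2.21 and 2.18% in DN-bmal1a libraries, against 1.89, 1.93 and 1.84% in control libraries. Rescaling each library to the same total gave a ratio of 1.14 and quantile normalisation 1.12, again without overlap. The median log2 fold change was 0.08, and -0.13 over all genes, a difference of 0.21. For the 136 and the 6611 genes with a mean of at least 10 CPM the medians were closer, at 0.10 and -0.06. Of their fold changes 59.6% and 46.0% were above 0. Quantile normalisation moved the median of all genes up by 0.17, and the median of the 151 genes then stood 0.13 above it. Single genes pointed both ways, with 86 fold changes above 0 (57.0%, against 41.9% of all genes) and 65 below. The replicates were closer in these genes than in the table as a whole, with a median standard deviation on log2(CPM + 1) of 0.38 in DN-bmal1a and 0.27 in control ECs, against 0.58 and 0.43 over all genes. Among genes with a mean of at least 10 CPM the values were 0.35 and 0.25, against 0.44 and 0.33.

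**Figure D2:**
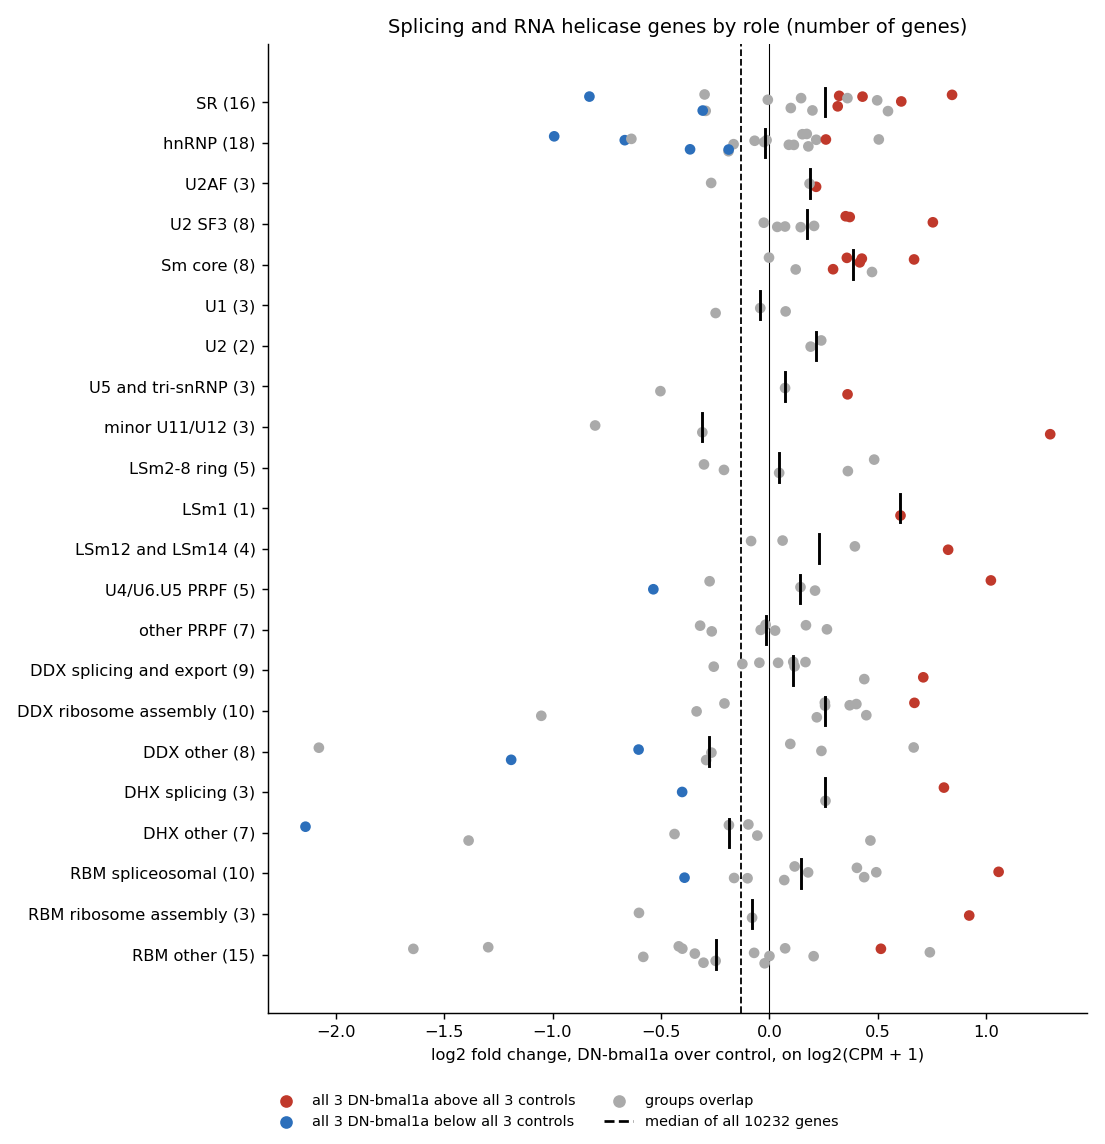
Log2 fold change of each of the 151 genes (DN-bmal1a over control, on log2(CPM + 1)) by role, with the number of genes in brackets. Red and blue points are genes whose DN-bmal1a libraries lie wholly above or wholly below the controls, grey points overlap, short bars are medians of each role, and the dashed line at -0.13 is the median of all genes. Only the minor U11/U12, other DDX, other DHX and other RBM genes have medians below that line.

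The SR proteins, whose arginine- and serine-rich tails recruit the splicing machinery to exons, were higher as a family. The 16 genes summed to 2877, 3277 and 3077 CPM in DN-bmal1a ECs, against 2604, 2572 and 2599 CPM in control ECs, a ratio of 1.19 without overlap under all 3 scalings, with a median log2 fold change of 0.26. Of the 16, 5 lay wholly above the controls (31.25%, against 7.00% of all genes), 2 lay wholly below (12.5%, against 10.7%), and 2 had an unadjusted p below 0.05, both higher (12.5%, against 3.10%). The lowest p was that of srsf2a, a copy of the exon-binding factor SRSF2. It had 632, 835 and 814 CPM in DN-bmal1a ECs, against 596, 554 and 531 CPM in control ECs (log2 fold change 0.43 ± 0.16 (SE), limma adjusted p = 0.384), with a small gap between the lowest DN-bmal1a and the highest control library. Srsf2b, the other copy, had 41.2, 30.3 and 22.1 CPM in DN-bmal1a ECs, against 19.5, 17.2 and 13.1 CPM in control ECs, also without overlap (log2 fold change 0.84 ± 0.44 (SE)). The SR protein gene srsf4 had 78.6, 96.8 and 122 CPM in DN-bmal1a ECs, against 67.5, 70.4 and 54.1 CPM in control ECs (log2 fold change 0.61 ± 0.26 (SE), limma adjusted p = 0.428). For srsf11, an SR-related protein that bridges splice sites and held 23.5% of the summed CPM of the family, levels were 689, 761 and 769 CPM in DN-bmal1a ECs, against 593, 588 and 599.9 CPM in control ECs. Its 3 control libraries lay close together and all below the DN-bmal1a libraries, and its adjusted limma p was 0.452. Srsf6b had 299, 385 and 359.8 CPM in DN-bmal1a ECs, against 281, 271 and 278 CPM in control ECs, without overlap. Against the direction of the family, srsf5b had 17.7, 14.7 and 15.3 CPM in DN-bmal1a ECs, against 45.2, 29.1 and 18.4 CPM in control ECs (log2 fold change -0.83 ± 0.47 (SE), and -0.52 without control library 1), with a control range wider than the gap between the groups. Srsf7a was the other SR gene wholly below the controls, with 209, 157 and 190.4 CPM in DN-bmal1a and 233, 209 and 244 CPM in control ECs, by a very narrow margin.

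The hnRNP genes showed no shared direction. Their sums overlapped, at 5258, 5761 and 5635 CPM in DN-bmal1a ECs, against 5951, 5038 and 5362 CPM in control ECs, and their median log2 fold change was -0.02, which became 0.04 after rescaling to the same total and 0.01 after quantile normalisation. Hnrnpa0l alone held 38.3% of the family's summed CPM and had 2031, 2318 and 2368 CPM in DN-bmal1a ECs, against 2207, 1776 and 1955 CPM in control ECs, with overlap. This was the family with the most genes below the controls, 4 of 18 (22.2%, against 10.7% of all genes), with 1 above (5.56%, against 7.00%). Its 3 genes with an unadjusted p below 0.05 were all lower (16.7%, against 8.12% of all genes). The first was hnrnpa0a, a relative of the mammalian HNRNPA0 that binds AU-rich elements of mRNAs. It had 124, 72.4 and 111 CPM in DN-bmal1a ECs, against 224, 160.5 and 222 CPM in control ECs (log2 fold change -0.99 ± 0.26 (SE), limma adjusted p = 0.256), without overlap. Hnrnpc, which packages nascent transcripts and binds runs of uridine, had 40.3, 58.6 and 48.3 CPM in DN-bmal1a ECs, against 64.9, 80.6 and 89.2 CPM in control ECs (log2 fold change -0.67 ± 0.27 (SE), limma adjusted p = 0.412). For hnrnpub, a copy of the nuclear scaffold protein hnRNP U, levels were 339, 333 and 359 CPM in DN-bmal1a ECs, against 510.0, 426 and 400.2 CPM in control ECs (log2 fold change -0.37 ± 0.16 (SE), limma adjusted p = 0.44). Both lay wholly below the controls, as did hnrnpaba, with 607, 599 and 480.3 CPM in DN-bmal1a and 641, 618 and 652 CPM in control ECs. In the other direction hnrnpk, a protein that binds cytosine-rich RNA through KH domains, had 383, 401 and 355 CPM in DN-bmal1a ECs, against 353, 306 and 293 CPM in control ECs (log2 fold change 0.26 ± 0.16 (SE)), and it was the family's gene above the controls. Hnrnpm, with the most positive fold change of the family at 0.50 ± 0.45 (SE), overlapped, with 50.1, 63.2 and 33.3 CPM in DN-bmal1a and 54.8, 17.8 and 36.4 CPM in control ECs, and its fold change was 0.078 without control library 2. Hnrnpul1 had 7.90, 80.0 and 51.2 CPM in DN-bmal1a and 59.8, 55.5 and 40.1 CPM in control ECs, and its log2 fold change of -0.64 turned to 0.32 without DN-bmal1a library 1.

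**Figure D3:**
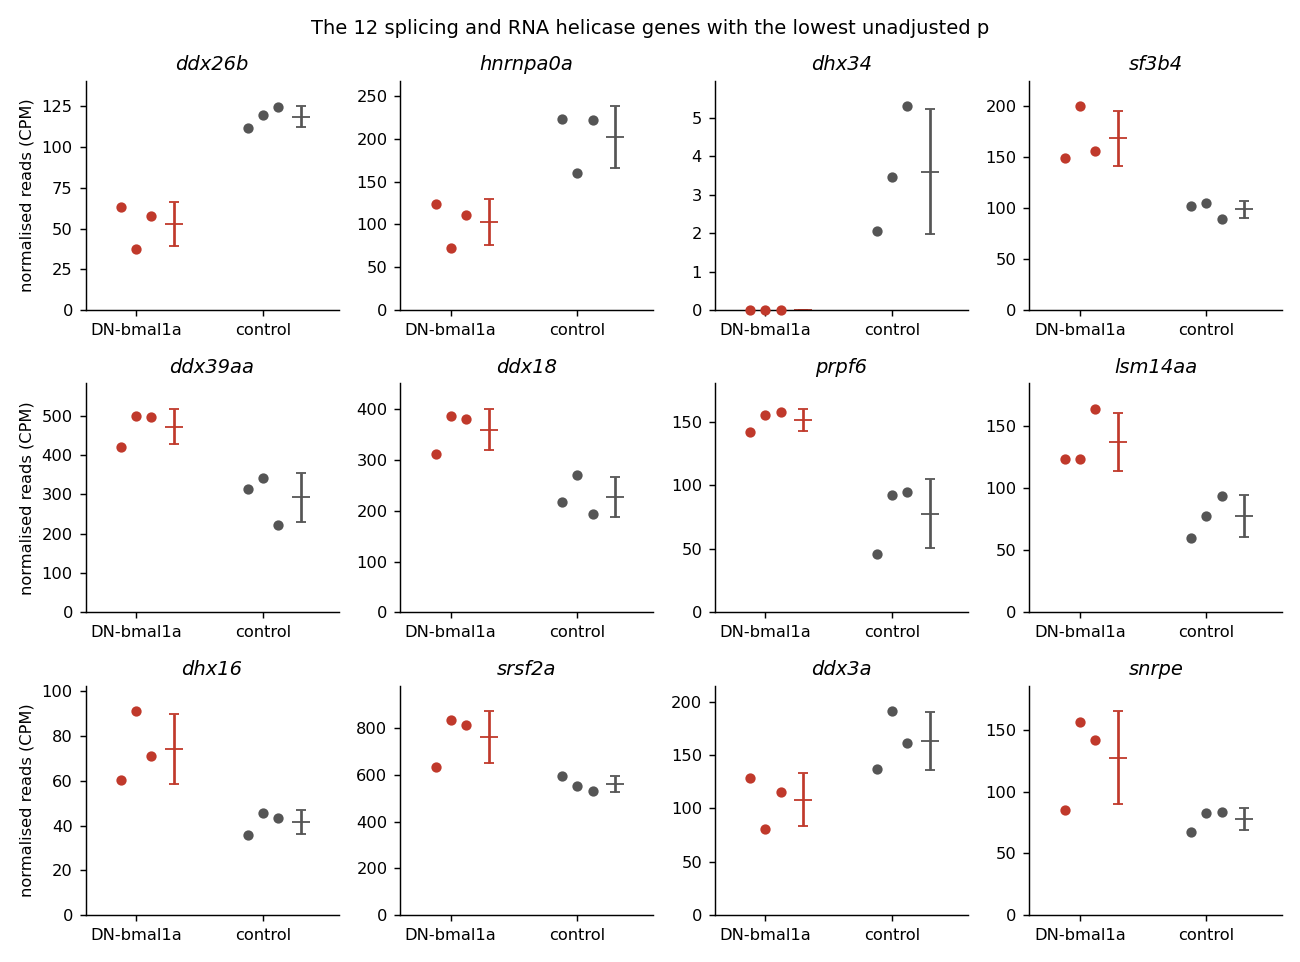
Normalised reads (CPM) of the 12 splicing and helicase genes with the lowest unadjusted p in each of the 3 DN-bmal1a and 3 control libraries. Points are libraries and bars the mean ± SD; each panel has its own axis from 0, and in all 12 genes the groups do not overlap, with dhx34 at 0 in the 3 DN-bmal1a libraries.

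Recognition of the end of the intron rests on U2AF and on the SF3A and SF3B proteins. Of the 3 U2AF genes, u2af2a, a copy of the large subunit that binds the polypyrimidine tract, had 119.8, 122 and 128 CPM in DN-bmal1a ECs, against 116, 106 and 97.3 CPM in control ECs, without overlap and with a log2 fold change of 0.22 ± 0.20 (SE). U2af1, the small subunit that reads the AG at the splice site, had 79.8, 42.1 and 67.0 CPM in DN-bmal1a ECs, against 76.3, 65.2 and 79.7 CPM in control ECs, with overlap (log2 fold change -0.27 ± 0.30 (SE), and -0.0075 without DN-bmal1a library 2). The sums of the 3 genes overlapped as deposited and lay wholly above the controls under both other scalings. Among the 8 SF3A and SF3B genes, which anchor the U2 snRNP at the branch point, 7 had a fold change above 0, and all 8 did under both other scalings. They summed to 1426, 1321 and 1579.6 CPM in DN-bmal1a ECs, against 1265, 1211 and 1168 CPM in control ECs, a ratio of 1.19 without overlap. Sf3b4, a subunit that touches the RNA just upstream of the branch point, had 149.5, 199.7 and 156 CPM in DN-bmal1a ECs, against 102, 105 and 89.7 CPM in control ECs (log2 fold change 0.75 ± 0.21 (SE), limma adjusted p = 0.277). Its lowest DN-bmal1a library stood well above its highest control library. Sf3a2 had 253, 238 and 279 CPM in DN-bmal1a ECs, against 215, 198 and 189 CPM in control ECs, and sf3a1 had 175, 179 and 253 CPM in DN-bmal1a ECs, against 134, 165 and 164 CPM in control ECs, both without overlap, at log2 fold changes of 0.35 ± 0.17 (SE) and 0.37 ± 0.21 (SE), and sf3a1 was 0.20 without DN-bmal1a library 3. The gene of this family with the lowest fold change was sf3b2, at -0.03 ± 0.23 (SE), with 276, 162 and 266 CPM in DN-bmal1a and 224, 221 and 253 CPM in control ECs. Its sign turned without DN-bmal1a library 2, at 0.22, and without control library 3, at 0.04.

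Among the 19 snRNP protein genes, those of the Sm ring, which all spliceosomal snRNAs except U6 and its minor counterpart carry, stood above the controls as a group. The 8 Sm core genes summed to 875, 947 and 899 CPM in DN-bmal1a ECs, against 809.7, 758 and 696 CPM in control ECs, a ratio of 1.20 without overlap under all 3 scalings. Their median log2 fold change of 0.39 was the highest of the roles with at least 3 genes, 7 of the 8 were above 0 and 5 lay wholly above the controls (62.5%, against 7.00% of all genes). One of the 5 had an unadjusted p below 0.05, snrpe, with 85.0, 156 and 141 CPM in DN-bmal1a ECs, against 67.1, 82.7 and 83.3 CPM in control ECs (log2 fold change 0.67 ± 0.27 (SE), limma adjusted p = 0.412). Its DN-bmal1a library 1 was close to the controls. Snrpd2 had 150.3, 140.3 and 151 CPM in DN-bmal1a ECs, against 134, 115 and 86.2 CPM in control ECs (log2 fold change 0.42 ± 0.22 (SE)) and snrpd3l had 63.6, 72.4 and 82.2 CPM in DN-bmal1a ECs, against 62.4, 59.1 and 41.7 CPM in control ECs (0.43 ± 0.27 (SE)). Snrpg had 73.2, 67.5 and 66.9 CPM in DN-bmal1a ECs, against 59.3, 61.2 and 42.8 CPM in control ECs, and snrpf had 64.8, 67.9 and 82.8 CPM in DN-bmal1a ECs, against 59.4, 55.1 and 59.9 CPM in control ECs. Without control library 3 the log2 fold change of snrpd2 was 0.24 and that of snrpd3l 0.25. In all 4 the groups were separated by little, with limma adjusted p between 0.52 and 0.69.

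Proteins specific to single snRNPs did not move together. Snrnp35, a protein of the U11/U12 snRNP that recognises the rare minor-class introns, had the most positive log2 fold change of the 151 genes, 1.30 ± 0.60 (SE), at a low level of 15.1, 21.9 and 16.5 CPM in DN-bmal1a ECs, against 4.11, 9.42 and 7.20 CPM in control ECs. The groups did not overlap, and the adjusted limma p was 0.463. Snrnp48, another U11/U12 protein, had 0, 526 and 292 reads in DN-bmal1a libraries, against 212, 441 and 378 reads in control libraries, and its log2 fold change of -0.80 ± 1.06 (SE) turned to 0.36 without DN-bmal1a library 1. Snrnp200, the helicase that unwinds U4 from U6 before the spliceosome is activated, had 282, 178 and 210.0 CPM in DN-bmal1a ECs, against 238, 359.8 and 351 CPM in control ECs, a log2 fold change of -0.50 ± 0.24 (SE) with overlap. Snrnp27, a protein of the U4/U6.U5 tri-snRNP, had 79.4, 85.5 and 69.0 CPM in DN-bmal1a ECs, against 65.6, 54.6 and 61.0 CPM in control ECs, without overlap. Over all 19 genes 7 lay above the controls (36.8%, against 7.00% of all genes) and 0 below, against 10.7% of all genes. The sums of the 19 genes overlapped as deposited, with a ratio of 1.06, and lay wholly above the controls after rescaling (1.11) and after quantile normalisation, by a narrow gap.

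The 10 LSm genes summed to 615, 723 and 696 CPM in DN-bmal1a ECs, against 533, 557 and 553 CPM in control ECs, a ratio of 1.24 without overlap under all 3 scalings. Lsm14aa, a copy of a protein that represses translation and gathers mRNAs in processing bodies, had 123, 123 and 164 CPM in DN-bmal1a ECs, against 60.3, 77.8 and 94.0 CPM in control ECs (log2 fold change 0.82 ± 0.25 (SE), limma adjusted p = 0.295). Lsm1, which marks the cytoplasmic ring that brings mRNAs to decapping, had 17.1, 26.3 and 18.3 CPM in DN-bmal1a ECs, against 15.0, 10.5 and 13.7 CPM in control ECs, without overlap at a low level (log2 fold change 0.60 ± 0.50 (SE)). Of the LSm2-8 ring, which binds the end of U6 snRNA, 5 genes were listed and all 5 overlapped, and lsm7 had the most positive fold change, with 87.7, 149.9 and 122 CPM in DN-bmal1a and 75.8, 85.1 and 90.4 CPM in control ECs. Lsm5 had the least, -0.30 ± 0.64 (SE), with 9.80, 11.7 and 4.71 CPM in DN-bmal1a and 8.86, 11.4 and 10.98 CPM in control ECs, and its sign turned without DN-bmal1a library 3, at 0.04.

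**Figure D4:**
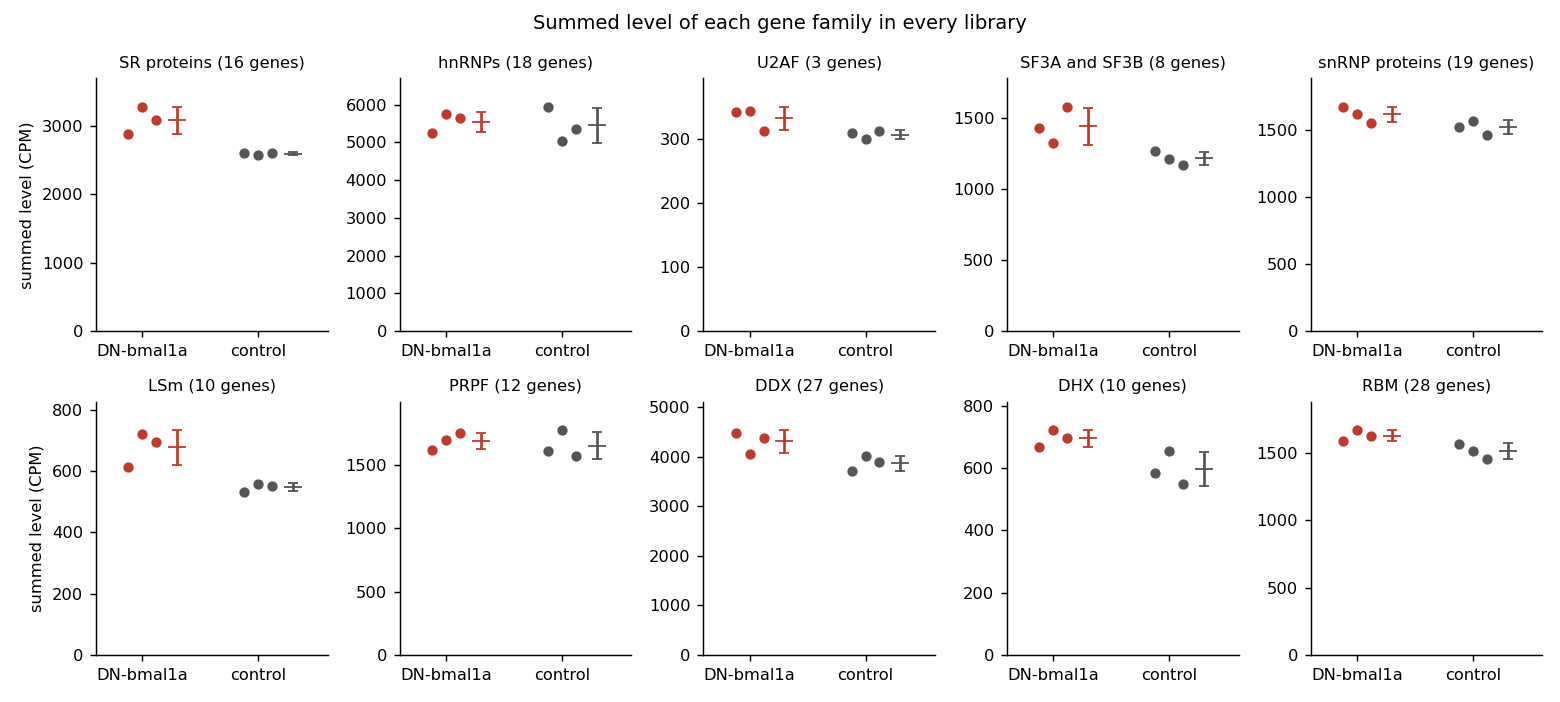
Summed level (CPM) of each of the 10 gene families in the 3 DN-bmal1a and 3 control libraries, with the mean ± SD beside the points and each axis from 0. DN-bmal1a libraries lie wholly above the controls for the SR, SF3A and SF3B, LSm, DDX, DHX and RBM families, and the groups overlap for the hnRNP, U2AF, snRNP and PRPF families.

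PRPF genes, named after yeast pre-mRNA processing factors, included tri-snRNP proteins on both sides of the controls. Prpf6, a scaffold that joins the U5 and U4/U6 snRNPs in the tri-snRNP, had 142, 156 and 158 CPM in DN-bmal1a ECs, against 46.3, 92.8 and 94.5 CPM in control ECs (log2 fold change 1.02 ± 0.29 (SE), limma adjusted p = 0.283). Its DN-bmal1a libraries lay close together and above every control, while control library 1 was well below the other controls. Without that library its log2 fold change was 0.69. Prpf3, a U4/U6 protein of the same particle, had 86.6, 69.9 and 72.4 CPM in DN-bmal1a ECs, against 165, 94.5 and 86.7 CPM in control ECs, wholly below the controls by a narrow gap (log2 fold change -0.53 ± 0.28 (SE), and -0.25 without control library 1). Prpf8, the U5 protein at the catalytic heart of the spliceosome, had 396, 388 and 394 CPM in DN-bmal1a ECs, against 374, 624 and 462 CPM in control ECs, with overlap. The sums of the 12 genes overlapped, with a ratio of 1.02, and 6 fold changes lay on each side of 0. Prpf39, a U1 snRNP-associated factor, had 477, 569 and 528 CPM in DN-bmal1a ECs, against 487, 411 and 411 CPM in control ECs, with overlap.

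Sums of the DDX genes lay on different sides of the controls in different roles. The 10 genes for ribosome assembly summed to 1212, 1015 and 1264 CPM in DN-bmal1a ECs, against 934, 892 and 829 CPM in control ECs, a ratio of 1.31 without overlap under all 3 scalings. Of the 10, 7 had a fold change above 0, 1 lay wholly above the controls (10%, against 7.00% of all genes) and 9 overlapped. Ddx18, which acts on the large ribosomal subunit in the nucleolus, had 313, 386 and 380.2 CPM in DN-bmal1a ECs, against 217, 269.9 and 194 CPM in control ECs (log2 fold change 0.67 ± 0.19 (SE), limma adjusted p = 0.283), without overlap. Ddx21, a nucleolar helicase of rRNA synthesis and processing, had 394, 293 and 446 CPM in DN-bmal1a ECs, against 334, 309 and 316 CPM in control ECs, and ddx47, which acts on the small subunit, had 154, 117 and 172 CPM in DN-bmal1a ECs, against 135, 92.5 and 106 CPM in control ECs, both with overlap. The most negative of the 10 was ddx52, another small-subunit factor, at -1.05 ± 1.1 (SE). It had 77.0, 1.28 and 45.4 CPM in DN-bmal1a and 53.4, 42.2 and 30.3 CPM in control ECs, and its fold change turned to 0.52 without DN-bmal1a library 2, where it was nearly absent.

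Among the 9 DDX genes of splicing and mRNA export the sum was 2826, 2663 and 2768 CPM in DN-bmal1a ECs, against 2279, 2537 and 2530.2 CPM in control ECs, a ratio of 1.12 without overlap under all 3 scalings. Of the 9, 1 lay wholly above the controls (11.1%, against 7.00% of all genes) and 8 overlapped. Ddx39aa, a copy of a helicase that loads export factors on spliced mRNA, had 421, 498 and 498 CPM in DN-bmal1a ECs, against 314, 341 and 222 CPM in control ECs (log2 fold change 0.71 ± 0.20 (SE), limma adjusted p = 0.28), without overlap. Ddx5, a co-activator of transcription and splicing, had 1485, 1202 and 1427 CPM in DN-bmal1a ECs, against 1001, 1345 and 1504 CPM in control ECs, with overlap, and its log2 fold change of 0.11 turned to -0.06 without control library 1.

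The 8 other DDX genes had a sum below the controls while their single genes pointed both ways. They summed to 449, 376 and 354 CPM in DN-bmal1a ECs, against 494, 585 and 527 CPM in control ECs, a ratio of 0.733, wholly below the controls under all 3 scalings. Of the 8, 5 had a fold change below 0 and 3 above, 2 lay wholly below the controls (25%, against 10.7% of all genes) and 6 overlapped. Ddx26b, the Integrator subunit (Integrator cleaves snRNA precursors and stalled transcripts), had 63.1, 37.3 and 57.7 CPM in DN-bmal1a ECs, against 112, 119.8 and 124 CPM in control ECs. Control libraries were close together and every DN-bmal1a library was far below them, at a log2 fold change of -1.19 ± 0.27 (SE). The unadjusted limma p of ddx26b was 0.00131, the lowest of the set, and the limma adjusted p was 0.223. DESeq2 gave -1.15 with an adjusted p of 0.00997. Ddx3a, a copy of the translation initiation helicase DDX3, had 128, 80.5 and 116 CPM in DN-bmal1a ECs, against 137, 191 and 162 CPM in control ECs (log2 fold change -0.60 ± 0.24 (SE), limma adjusted p = 0.404), wholly below the controls by a small gap, and ddx3b had 147, 155 and 83.0 CPM in DN-bmal1a and 140.5, 165 and 150.3 CPM in control ECs, with overlap. Ddx59 had 0, 287 and 0 reads in DN-bmal1a libraries, against 210, 522 and 429 reads in control libraries, and ddx28, a helicase of the mitochondrial ribosome, had 518, 0 and 593 reads in DN-bmal1a libraries, against 0, 179 and 276 reads in control libraries. Both were at 0 in some libraries and well covered by reads in others of the same group, and ddx28 turned from a log2 fold change of 0.67 to -0.21 without control library 1.

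The sum of the DHX family lay above the controls, while its median was close to that of all genes. The sum was 668, 722 and 695 CPM in DN-bmal1a ECs, against 583, 656 and 548 CPM in control ECs, a ratio of 1.17 without overlap, of which dhx15, a helicase that takes apart spent spliceosomes, held 65.5%. Dhx15 itself had 467, 508 and 407 CPM in DN-bmal1a ECs, against 399, 412 and 342 CPM in control ECs, with overlap. The median log2 fold change was -0.14, against -0.13 over all genes. Below 0 were 7 of the 10 genes, and 5945 of all 10232. After quantile normalisation the median became 0.05, against 0.04 over all genes. Dhx16, the counterpart of yeast Prp2, which starts the first catalytic step, had 60.5, 91.1 and 71.1 CPM in DN-bmal1a ECs, against 35.7, 45.8 and 43.5 CPM in control ECs (log2 fold change 0.81 ± 0.28 (SE), limma adjusted p = 0.36). Dhx38, the counterpart of yeast Prp16, which acts between the catalytic steps, had 44.8, 51.0 and 58.6 CPM in DN-bmal1a ECs, against 60.3, 84.5 and 61.5 CPM in control ECs, wholly below the controls (log2 fold change -0.40 ± 0.27 (SE), and -0.25 without control library 2). Dhx34, which in human cells takes part in nonsense-mediated mRNA decay, had no read in any DN-bmal1a library and -2.14 as its log2 fold change on log2(CPM + 1).

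Counts of dhx34 were low where it was found. It had 0, 0 and 0 reads in DN-bmal1a libraries, against 85, 129 and 266 reads in control libraries, or 0, 0 and 0 CPM in DN-bmal1a ECs, against 2.05, 3.45 and 5.29 CPM in control ECs. With 3 reads put in place of 0 in each DN-bmal1a library, its mean was 46.4-fold lower than in control ECs. This fold allows for the sampling of reads but not for the spread between libraries, so it is not a lower bound. Its adjusted p was 0.274 in limma and 0.00360 in DESeq2. The fitted fold change depends on the value added before the logarithm. The table held no gene detected in fewer than 3 libraries. A gene without a read in any DN-bmal1a library was thus listed only if every control library had reads. Given its zeros, the gap of dhx34 was fixed by that rule, and its p-values and fold are no support for a difference. Libraries without a read of a gene were common in the table. Of the 151 genes, 10 (6.62%) had no read in at least 1 library, against 26.5% of all genes, 8 of them in DN-bmal1a libraries only, 1 in control libraries only and 1 in both. Over the whole table, 722, 1760 and 865 genes had no read in DN-bmal1a libraries, against 696, 34 and 422 genes in control libraries. Dhx33, a helicase of ribosomal RNA synthesis, had 0, 0 and 747 reads in DN-bmal1a libraries, against 207, 197 and 291 reads in control libraries. The RNA-binding protein gene rbm38 had 308, 0 and 293 reads in DN-bmal1a libraries, against 75, 132 and 80 reads in control libraries, and its log2 fold change of 0.20 turned to -0.36 without DN-bmal1a library 1 and to -0.17 without library 3. In ddx59, ddx28, dhx33, snrnp48 and rbm38 a library at 0 stood beside a replicate with many reads.

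The 28 RBM genes share an RNA-recognition name and little else. They summed to 1593, 1669 and 1627 CPM in DN-bmal1a ECs, against 1569, 1516 and 1454 CPM in control ECs, a ratio of 1.08 without overlap, and the median log2 fold change was -0.05, which became 0.01 after rescaling and 0.11 after quantile normalisation. Rbm4.3, a relative of the splicing regulator RBM4, had 149, 205 and 156 CPM in DN-bmal1a ECs, against 108, 111 and 135 CPM in control ECs (log2 fold change 0.51 ± 0.21 (SE), limma adjusted p = 0.413), without overlap. Rbm34, related to a yeast factor of large-subunit assembly, had 29.3, 53.5 and 49.1 CPM in DN-bmal1a ECs, against 19.9, 25.2 and 21.2 CPM in control ECs (log2 fold change 0.92 ± 0.38 (SE), limma adjusted p = 0.42), also without overlap. Rbm48, which in human cells works with the minor spliceosome, had 44.0, 32.0 and 23.1 CPM in DN-bmal1a ECs, against 9.76, 15.7 and 21.2 CPM in control ECs, the most positive fold change of the family at 1.06 ± 0.48 (SE). Its DN-bmal1a library 3 was close to control library 3. Rbm12b had 115, 125 and 62.8 CPM in DN-bmal1a ECs, against 46.1, 72.1 and 57.2 CPM in control ECs (log2 fold change 0.74 ± 0.32 (SE), limma adjusted p = 0.437), with overlap. Rbm8a, a core protein of the exon junction complex, had 147, 206 and 179.5 CPM in DN-bmal1a ECs, against 155, 130.2 and 116 CPM in control ECs, with overlap, and rbm22, a protein of the active spliceosome, had 67.6, 71.5 and 69.8 CPM in DN-bmal1a ECs, against 103, 74.0 and 101 CPM in control ECs, wholly below the controls. The most negative fold change was that of rbm12, -1.64 ± 1.01 (SE), with 7.32, 0.0367 and 11.8 CPM in DN-bmal1a and 12.6, 26.8 and 7.85 CPM in control ECs. Without DN-bmal1a library 2, which held 1 read of rbm12, it was -0.54.

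Zebrafish carry duplicated copies of many of these genes, and 18 pairs ending in a and b were both listed. In 12 pairs the copies had fold changes of the same sign. Copies differed most in hnrnpa0a, given above, and hnrnpa0b, which had 569, 594 and 573 CPM in DN-bmal1a ECs, against 612, 550.1 and 604 CPM in control ECs with overlap (log2 fold change -0.02 ± 0.14 (SE), turning to 0.0049 without control library 1). The log2 ratio of hnrnpa0a to hnrnpa0b within a library was -2.19, -3.02 and -2.36 in DN-bmal1a ECs, against -1.45, -1.77 and -1.44 in control ECs. Lsm14ab had 149, 121 and 153 CPM in DN-bmal1a ECs, against 133, 136 and 133 CPM in control ECs, and the ratio of lsm14aa to lsm14ab was -0.26, 0.03 and 0.10 in DN-bmal1a ECs, against -1.12, -0.80 and -0.50 in control ECs. Ddx39ab had 591, 517 and 506 CPM in DN-bmal1a ECs, against 519, 502 and 466 CPM in control ECs, and the ratio of ddx39aa to ddx39ab was -0.49, -0.05 and -0.02 in DN-bmal1a ECs, against -0.72, -0.55 and -1.07 in control ECs. In these 3 pairs the ratios did not overlap, and in the other 15 they did. The exact permutation test gave p = 0.1 for each of the 3, the smallest that 3 libraries against 3 allow, and 0.60 after Benjamini-Hochberg adjustment over the 18 pairs. How the counting treated reads that match both copies was not tested, and values of near-identical copies are uncertain for that reason.

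**Figure D5:**
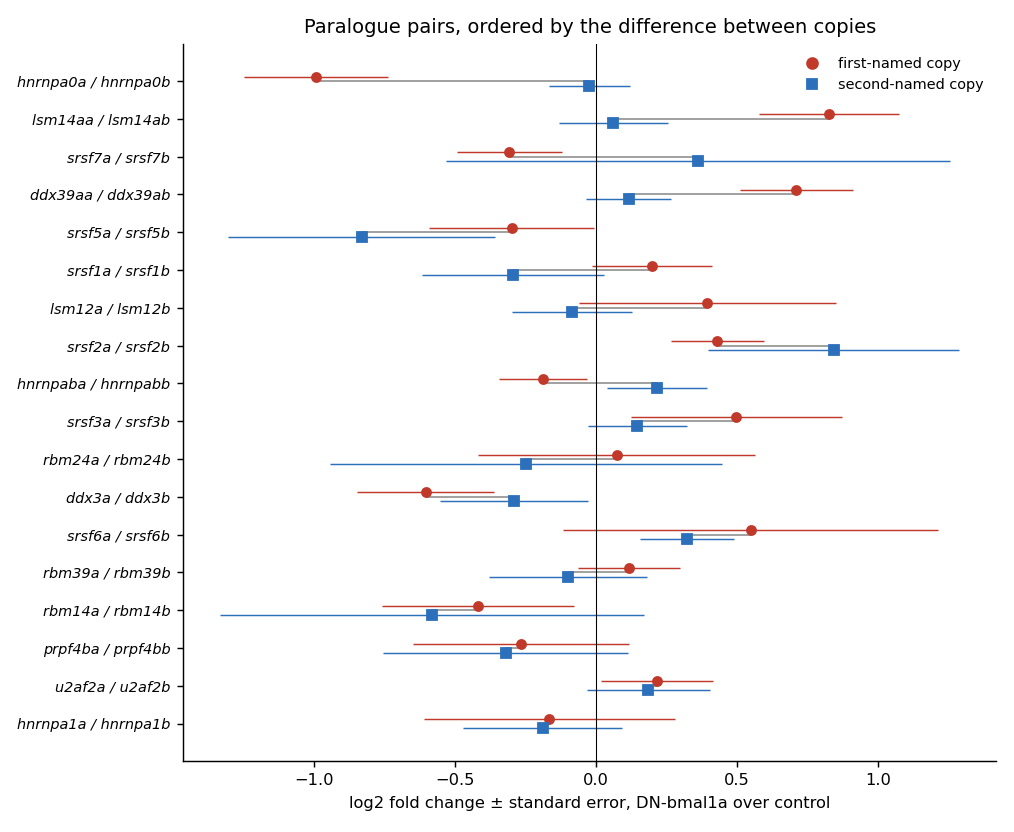
Log2 fold change ± SE (DN-bmal1a over control, on log2(CPM + 1)) of both copies of 18 paralogue pairs, ordered by the difference between the copies. Red circles are the copy named first and blue squares the copy named second, and the copies stand farthest apart for hnrnpa0a at -0.99 and hnrnpa0b at -0.02.

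Other genes of splicing were taken from a list of proteins outside the naming rule, of which 83 were listed in the table. They include factors of the Prp19 complex, the exon junction complex, SMN-dependent snRNP assembly and the kinases of SR proteins. None of the 83 passed the thresholds. At an unadjusted limma p below 0.05, 3 were higher (3.61%, against 3.10% of all genes) and 2 lower (2.41%, against 8.12%), and leaving out any 1 library gave 1 or 2 higher and between 0 and 3 lower, with 0 lower without control library 2. Their sums overlapped, at 8717, 9378 and 9363 CPM in DN-bmal1a ECs, against 8648, 8858 and 8384 CPM in control ECs. Of their fold changes 54 were above 0 (65.1%, against 41.9% of all genes) and 29 below. Their median log2 fold change was 0.14, against -0.13 over all genes and -0.06 over those with a mean of at least 10 CPM. This median and the share above 0 were higher than in the 151 genes, with 57.0% above 0 and a median of 0.08. In 8 genes the DN-bmal1a libraries lay wholly above the controls (9.64%, against 7.00% of all genes) and in 3 wholly below (3.61%, against 10.7%).

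Of the genes above, cdc40, the counterpart of yeast Prp17 and a factor of the second catalytic step, had 73.3, 119 and 85.4 CPM in DN-bmal1a ECs, against 45.2, 61.4 and 54.7 CPM in control ECs (log2 fold change 0.76 ± 0.28 (SE)). Bcas2, a subunit of the Prp19 complex, had 70.5, 118 and 133 CPM in DN-bmal1a ECs, against 65.3, 65.5 and 60.7 CPM in control ECs, and bud31, which sits near the active site of the spliceosome, had 113, 93.5 and 107 CPM in DN-bmal1a ECs, against 79.1, 74.2 and 67.3 CPM in control ECs. Smn1, which loads Sm proteins on snRNAs, had 9.34, 10.5 and 10.6 CPM in DN-bmal1a ECs, against 5.31, 5.84 and 4.57 CPM in control ECs, wholly above the controls at a low level. The others above were luc7l3, rnps1, txnl4a and srpk1b. Among the genes below, cwc22, which escorts the exon junction helicase eif4a3 to the spliceosome, had 20.2, 11.5 and 35.3 CPM in DN-bmal1a ECs, against 53.5, 52.2 and 43.6 CPM in control ECs (log2 fold change -1.25 ± 0.44 (SE), limma adjusted p = 0.361). The polypyrimidine-tract protein gene ptbp1a had 342, 315 and 318 CPM in DN-bmal1a ECs, against 386, 362 and 366 CPM in control ECs, and wbp4 was the third of the genes below. The kinase gene clk2b, whose product phosphorylates SR proteins, had 7.18, 0.0733 and 0 CPM in DN-bmal1a ECs, against 11.1, 5.43 and 9.23 CPM in control ECs, with overlap in range (log2 fold change -2.17 ± 0.93 (SE)).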

How the data were processed

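RNA of sorted GFP+ cells was amplified with a SMARTer kit and sequenced, and the authors mapped reads with STAR 2.7.0f, counted them per gene with HTSeq 0.9.1 and normalised the counts with edgeR (version 3.38.4 in their processing notes). The paper names the GRCz10 genome and the notes GRCz11, and no coordinates are given for that reason. The deposited signal of 10232 genes was handled on the CPM scale. Columns did not sum to 1000000, but all values above 0 (100%, within 0.01) were whole multiples of 1 step per library, equal to that of edgeR's TMM library sizes, and whole reads were recovered from them. The table held no gene detected in fewer than 3 libraries, and such genes are not covered here. No column was left unmapped.

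Groups were taken from the genotype labels, 3 libraries each. The 6 column names equal the sample titles and were matched by them. The sample descriptions number the libraries otherwise, so that the names of the DN-bmal1a columns also occur as library names of the controls, and all directions rest on the match by title. Of the marker genes, the paper lists flt4 as lower and hbbe1.1 and hbae3 as higher in DN-bmal1a ECs, the same directions as under this match. Limma 3.58.1 (lmFit, eBayes with a trend, R 4.3.3) was fitted to log2(CPM + 1) of all genes without a filter, and genes were called at a Benjamini-Hochberg adjusted p below 0.05 and a 2-fold difference, the thresholds of the study. With these thresholds the paper's own edgeR test listed more genes than limma called here, and none of them belongs to this set. Fold changes are on this scale, which understates those of weakly expressed genes. For single genes the exact permutation test (two-sided) was added. Alternatives were pseudocounts of 0.1 and 10, filters at a mean of 1 and 10 CPM, rescaling to the same total, quantile normalisation, a fit with the replicate block, no trend in eBayes, array weights, omission of each library in turn, and edgeR 4.0.16 and DESeq2 1.42.0 on the recovered reads. Counts of non-overlapping genes without each library were added after the data were seen. Limma, both edgeR tests without a block and DESeq2 were tested on simulated data, where DESeq2 made the most false calls when every gene had its own dispersion. In that setting DESeq2 also recovered the most changed genes, and limma and edgeR's quasi-likelihood test missed more of them than they found.

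The genes and lists were chosen with earlier results of these data known. Named genes were the 12 lowest p-values, the lowest p and the extreme fold changes of each family, the 5 widest ranges among genes with a library at 0, and the paralogue pair that differed most. These were ddx18, ddx26b, ddx28, ddx39aa, ddx3a, ddx59, dhx16, dhx33, dhx34, hnrnpa0a, hnrnpa0b, hnrnpm, lsm14aa, lsm5, prpf3, prpf6, rbm12, rbm38, rbm4.3, rbm48, sf3b2, sf3b4, snrnp35, snrnp48, snrpe, srsf2a, srsf2b, srsf5b, u2af1 and u2af2a. All other genes named were chosen after their values were seen. Names were compared with RefSeq's GRCz12tu gene table, where 145 symbols matched directly, 5 as synonyms and 1, ddx41, did not. A search of promoters and proteins for motifs was not run.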

Additional observations from a re-analysis of the deposited data

How the results depend on the processing

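No gene of the 151 was called under any alternative except DESeq2, which called 2, ddx26b (log2 fold change -1.15, adjusted p = 0.00997) and dhx34 (-9.60, adjusted p = 0.00360), and leaving out libraries gave 0 throughout. The gap of dhx34 was fixed by the rule that listed only genes detected in at least 3 libraries. The count higher at an unadjusted p below 0.05 was 7 under edgeR's quasi-likelihood test with the replicate block (against 1.79% of all genes), and between 7 (4.64%) and 15 (9.93%) with a library left out, against 2.84% and 4.05% of all genes in those fits (7 also without control library 2, against 2.46%). The count lower was 3 under that test (against 3.80%) and 3 under edgeR's exact test (against 4.94%), and between 3 (1.99%, against 4.94%) and 8 (5.30%, against 6.65%) with a library left out. The other splicing genes were 5 higher with array weights (6.02%, against 4.12% of all genes) and 1 with the quasi-likelihood test and replicate block (1.20%, against 1.79%), and between 1 and 2 with a library left out, against between 2.14% and 4.05% of all genes. Their count lower was 1 (against between 3.80% and 7.70% of all genes) with the filter at 10 CPM, quantile normalisation, the quasi-likelihood test with and without the replicate block, the exact test and DESeq2, and between 0 and 3 with a library left out, against between 4.94% and 10.9%. With a library left out, genes wholly above the controls numbered between 28 (18.5%) and 40 (26.5%), against between 9.77% and 13.0% of all genes, and genes wholly below between 15 (9.93%) and 21 (13.9%), against between 14.2% and 20.1% of all genes. After rescaling they were 34 (22.5%, against 8.29% of all genes) and 8 (5.30%, against 9.64%), and after quantile normalisation 29 (19.2%, against 10.2%) and 8 (against 7.51%). The median log2 fold change of the 151 genes lay between 0.05 and 0.16 throughout.

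The labels do not say whether same-numbered libraries were paired. Their deviations had correlations of -0.07, -0.01 and 0.00, which show no sign of pairing but cannot decide it with 3 libraries a group. Limma with the replicate block gave 8 genes higher and 4 lower and none called, against 2.36% and 7.62% of all genes.

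Of 79 genes followed singly, leaving out 1 library turned the sign of 10 and brought the fold change of 25 others more than 1.5 times closer to 0. At their closest to 0 these were ddx21 0.088, ddx39ab 0.047, ddx3b -0.0060, dhx33 -0.75, dhx38 -0.25, hnrnpa0l 0.10, hnrnpaba -0.078, hnrnpabb 0.11, hnrnpm 0.078, khdrbs1a 0.0086, lsm7 0.31, luc7l3 0.27, prpf3 -0.25, prpf8 -0.081, rbm12 -0.54, rnps1 0.16, sf3a1 0.20, snrpd2 0.24, snrpd3l 0.25, snrpf 0.19, snrpg 0.20, srpk1b 0.65, srsf5b -0.52, srsf7a -0.19 and u2af1 -0.0075. Hnrnpa0b was 0.038 after rescaling and 0.025 with array weights. Sf3b2 was 0.036 after rescaling, 0.024 after quantile normalisation, 0.12 with array weights, 0.012 under edgeR's quasi-likelihood and exact tests and 0.033 under DESeq2. Snrnp48 was 0.0012 and 0.0014 under the quasi-likelihood and exact tests and 0.035 under DESeq2, and rbm38 was -0.54 with a pseudocount of 0.1. With a library left out, ddx28 lay between -0.21 and 1.87, hnrnpa0b between -0.072 and 0.0049, lsm5 between -0.53 and 0.044, rbm38 between -0.36 and 1.15, sf3b2 between -0.16 and 0.22, snrnp48 between -1.81 and 0.36, hnrnpul1 between -1.27 and 0.32, lsm14ab between -0.0027 and 0.17, ddx5 between -0.059 and 0.23 and ddx52 between -2.03 and 0.52. The cause was not tested. With 3 libraries a group the precision was set by the spread between libraries and not by counting error.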
